A study of Saccharomyces cerevisiae with 9 samples.

Results

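The mitochondrial ribosomal protein genes of budding yeast are nuclear genes for the proteins of the ribosome inside mitochondria. They were taken by name in the R64 genome annotation: every gene whose name starts with MRPL, MRPS or RSM followed by a number, together with MRP1, MRP2, MRP4, MRP7, MRP10, MRP13, MRP17, MRP20, MRP21, MRP49, MRP51, IMG1 and IMG2. The rule found 67 genes, and all of them had a row among the 7127 genes of the count data. Of these, 39 encode proteins of the large subunit and 28 proteins of the small subunit. A counterpart in the bacterial ribosome is known for 41 of the proteins, 25 have none, and RSM22 was left unclassed. The naming rule uses no measured value, though earlier results of these data were known when the group was chosen.

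The mitochondrial ribosome makes a handful of proteins encoded by mitochondrial DNA, nearly all of them subunits of the respiratory chain and the ATP synthase. Its own proteins, apart from Var1, are made in the cytosol and imported. Their mRNAs are the best known targets of Puf3, an RNA-binding protein that binds a short element behind the stop codon, sends the bound mRNAs to the mitochondrial surface and hastens their decay while cells ferment glucose. On glucose, yeast represses much of its respiratory machinery, and this repression is lifted as the sugar runs down.

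The study divided the log phase of growth by cell density (OD600) into early, mid and late log and asked how the transcriptome differs between these subphases. Each subphase had 3 biological replicates, so 9 libraries of polyadenylated RNA were made. All groups were the same strain, called wild type, a MATa haploid with a tagged gene for a polymerase I subunit, RPA135-(HA)3-(His)7::TRP1. In every group it also carried the alleles can1-100 and his3-11, a leu2 allele with a pair of mutations, and the further alleles trp1-1, ura3-1 together with ade2-1. All cultures grew in YPD, a rich glucose medium, at 30 °C. Sequencing run 1 held early log replicates 1 and 2, run 2 held the mid log libraries, and run 3 held early log replicate 3 and the late log libraries, so that mid log and run 2 cannot be told apart.

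Between 22830165 and 34358259 reads per library fell on genes. Most mating type markers were those of MATa cells. STE2, the receptor of MATa cells, lay between 330.0 and 993 CPM. CPM are reads of the gene per 1000000 reads on genes, with library sizes scaled by TMM, a normalization that assumes most genes do not change. STE3, the counterpart of STE2 in MATalpha cells, lay between 1.44 and 3.03 CPM. The MATa genes MFA1, MFA2 and BAR1 lay at 19.6 to 266, 114 to 821 and 108 to 218 CPM. The MATalpha genes MF(ALPHA)1 and MF(ALPHA)2 stayed at or below 1.84 CPM. SAG1, a MATalpha gene that should be low as well, lay at 16.3 to 27.7 CPM. Mid log replicate 1 stood apart from mid log replicates 2 and 3, and early log replicate 3 from early log replicates 1 and 2. The paper also saw early log C and mid log A deviate, by their letters the same libraries. It places early log C at the upper and mid log A at the lower limit of the OD600 range of its subphase. In chi-square per degree of freedom over genes, early log replicate 3 differed from replicates 1 and 2 by 499 and 443, against 8.77 between those, and mid log replicate 1 from replicates 2 and 3 by 668 and 636, against 15.9 between those. Early log replicate 3 was the highest early log library for 47 of the 67 members (70.1%, against 44.7% of all genes). The counts of members that rose and fell are given with and without either library. The TMM factors differed, with 1.36 to 1.47 for early log libraries, 0.700 to 1.01 for mid log libraries and 0.878 to 0.902 for late log libraries. Scaling therefore bears on every level below, and values scaled by plain library totals are given where they differ.

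The element bound by Puf3 was all but universal among these genes. Its core, TGTANATA on the gene's own strand (N is any base), was found within 200 bases behind the stop codon in 66 of 67 genes (98.5%), against 844 of 5988 protein-coding genes with such a window (14.1%). The exception was RSM22, which encodes a methyltransferase-like protein found with the small subunit. The first element began 8 to 139 bases behind the stop codon, with a median of 50.5, and 53 genes held a single element, 12 held 2 and 1 held more. A C stood 2 bases before the first core in 47 of the 65 genes with enough sequence before it (72.3%), against 185 of 720 other genes with the element (25.7%). The free position of the core was A in 32 genes, T in 21, C in 12 and G in 1. A match to these letters is a description and does not show that the element is used.

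The first elements of 10 genes that carry the results are printed from the RefSeq R64 genome, with the core in capitals and up to 10 bases on either side. The first 4 belong to the members highest in level, the next 3 to the members that passed the test between late and mid log, and the last 3 to members that fell most between early and late log.
MRPS12 (chrXIV:694270-694297, minus strand): tacaacctttTGTAAATAgcaatgacca
IMG1 (chrIII:209864-209891, minus strand): acccatctccTGTATATAagaaaaatag
RSM26 (chrX:619112-619139, plus strand): tcttatatacTGTAAATAgttttatttt
MRPL23 (chrXV:612536-612563, plus strand): cttcaatccaTGTATATAtttatctgtt
MRP17 (chrXI:437039-437066, minus strand): tacaaacacaTGTAAATAcatacatatc
MRPL39 (chrXIII:251208-251235, minus strand): tcatttatccTGTAAATAagtaatggat
RSM19 (chrXIV:695025-695051, minus strand): gggatctagTGTATATAgatttctaga
MRP13 (chrVII:647065-647092, minus strand): taaacataccTGTAAATActaaaaagta
RSM18 (chrV:253887-253914, minus strand): tagttctgtcTGTAAATAtacaatatgt
MRPL11 (chrIV:99268-99295, plus strand): tattcaatcaTGTACATAcatcatcaaa
The same core stands behind genes that rose and genes that fell. MRPS12, RSM26, MRP17, MRPL39, MRP13 and RSM18 share it to the letter. Among other genes with the element, 295 rose (38.7%) and 306 fell (40.1%) of 763 tested between early and late log. Their median log2 fold change was -0.02. Among other genes without it, 1432 rose (29.9%) and 2002 fell (41.8%) of 4785, with a median of -0.18. Whether the element bears on these changes was not tested.

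The promoters, taken as 250 bases before and 50 bases from the start codon, held none of the elements searched at a share above that of all genes. AATTTT (the core of the RRPE element of ribosome biogenesis genes) stood in 41.8% of these promoters against 51.7% of all, GATGAG (the core of the PAC element) in 16.4% against 20.4%, and CCAAT (the core bound by the Hap complex) in 40.3% against 43.3%, on either strand.

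Summed over the 67 genes, the mRNA of the mitochondrial ribosome was highest in late log. The sum was 1425, 1359 and 1768 CPM in early log replicates 1, 2 and 3, then 2063, 1834 and 1984 CPM in mid log and 3283, 2944 and 3480 CPM in late log. The 3 subphases did not overlap, but the gap between mid and early log rested on MRPS12. Without this gene the sums were 1373, 1314 and 1714 CPM in early log, 1949, 1529 and 1692 CPM in mid log and 3039, 2684 and 3195 CPM in late log, and mid log overlapped with early log replicate 3. The large subunit sums of mid and early log overlapped as well (ratio 1.23, exact permutation p = 0.2). Late log held 3236 ± 271 CPM against 1517 ± 220 CPM in early log (SD, n = 3 each), a ratio of 2.13. For the sum of all 67 genes the 2-sided exact permutation p was 0.1 for each pair of subphases, the smallest that 3 libraries against 3 can give. The ratio of late to early log was 2.12 for the large subunit and 2.14 for the small subunit.

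Part of this order depends on the scaling. As a share of all reads on genes, these genes took 0.196%, 0.185% and 0.260% in early log, 0.208%, 0.133% and 0.139% in mid log, and 0.295%, 0.266% and 0.306% in late log. On this scale late log was again above both others without overlap (0.289% ± 0.0207 against 0.213% ± 0.0407 in early log, ratio 1.35), but mid log was not above early log (ratio 0.750, exact permutation p = 0.3). The mid over early ratio of the sums was 1.29 with TMM. Polyadenylated RNA was sequenced without an added standard, so a change of all mRNA per cell was not measured.

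**Figure D1:**
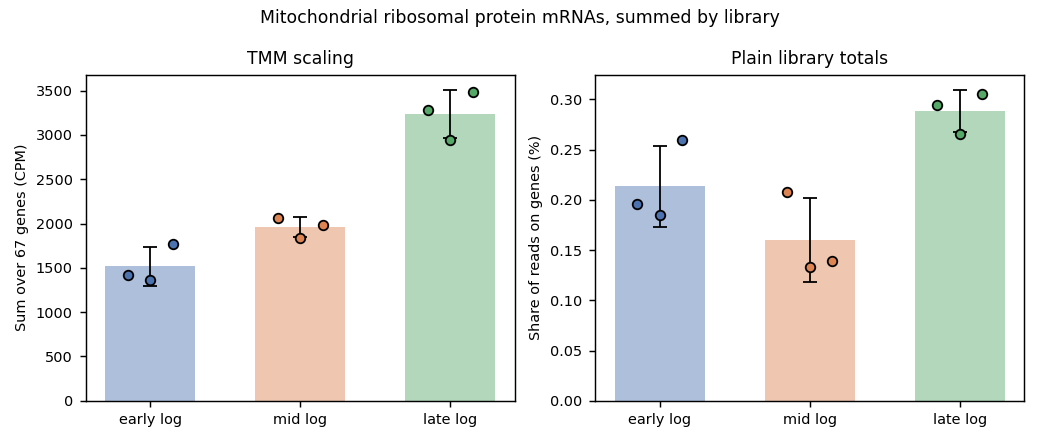
Sum of the 67 mitochondrial ribosomal protein mRNAs in each library, in CPM with TMM scaling (left) and as percent of reads on genes (right). Points are libraries, bars the mean and error bars the SD of 3 libraries in early, mid and late log; late log lies highest on both scales, and mid log moves from above early log to below it on average when plain totals are used.

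The levels of the genes lay further apart in mid and late log than in early log. Measured per kilobase of coding length, so that genes can be compared, MRPS12 stood highest in every library. It averaged 397 CPM per kilobase over the 9 libraries, followed by IMG1 with 198, RSM26 with 156 and MRPL23 with 154. RSM22 was the lowest on average with 2.25 CPM per kilobase, and MRPL24 and MRP13 came next with 6.82 and 7.51. The SD of log2 CPM per kilobase over the 67 genes was 0.67, 0.72 and 0.81 in early log, 1.40, 2.21 and 2.22 in mid log, and 1.89, 2.04 and 1.84 in late log. Early log did not overlap with either of the others (late log 1.92 ± 0.11 against early log 0.74 ± 0.07, SD, n = 3 each, exact permutation p = 0.1, the smallest possible). Late and mid log overlapped (1.92 ± 0.11 against 1.94 ± 0.47, exact permutation p = 1.0), and mid log replicates 2 and 3 had the widest spread of all 9 libraries.

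The level of the gene at the 90th percentile was 2.91 to 3.43 times that of the gene at the 10th percentile in early log, 10.3, 41.4 and 50.5 times in mid log replicates 1, 2 and 3, and 23.6 to 29.2 times in late log. The same ratio over all 5516 coding genes tested lay at 48.2 to 67.4 in the early log libraries, at 152 to 378 for mid log and at 210 to 224 for late log. For the cytosolic ribosomal proteins a list of 138 genes was taken by name (RPL, RPS or RPP followed by a number). It includes RPP1, which encodes a subunit of RNase P instead. In this list the ratio lay at 6.51 to 6.98 in the early log libraries, at 7.75 to 18.8 for mid log and at 12.0 to 14.9 for late log.

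**Figure D2:**
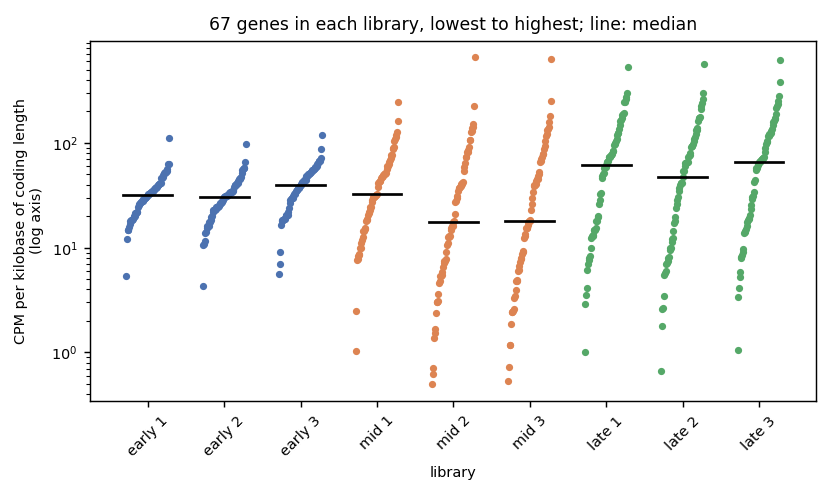
Level of each of the 67 genes in each library, in CPM per kilobase of coding length on a log axis, ordered from lowest to highest within the library; the line marks the median. The early log libraries span a narrow range, with 90th to 10th percentile ratios of 2.91 to 3.43, and the mid and late log libraries a wide one.

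Between early and late log, 34 of the 67 genes rose and 17 fell past an adjusted p of 0.05 (edgeR's quasi-likelihood test, Benjamini-Hochberg adjustment over 5954 genes), and 16 did not pass. Over all genes tested, 33.0% rose and 39.2% fell. The share of members that rose (50.7%) was above this background and the share that fell (25.4%) below it. The median log2 fold change of the members was 0.57, against -0.08 over all genes, and the values spanned -2.68 to 2.54. The libraries of late and early log did not overlap, with late log higher, for 38 members (37.9% of all genes) and, with late log lower, for 17 (39.2% of all genes). All 67 genes were measured in every library, with 6 reads as the lowest count.

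Rises and falls were found in both subunits. Of the large subunit genes, 20 rose and 9 fell of 39, with a median log2 fold change of 0.71, and of the small subunit genes 14 rose and 8 fell of 28, with a median of 0.45. Among genes whose proteins have a bacterial counterpart, 23 rose and 10 fell of 41 (median 0.74), and among those without a counterpart 11 rose and 6 fell of 25 (median 0.42). The differences between these classes were not tested.

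**Figure D3:**
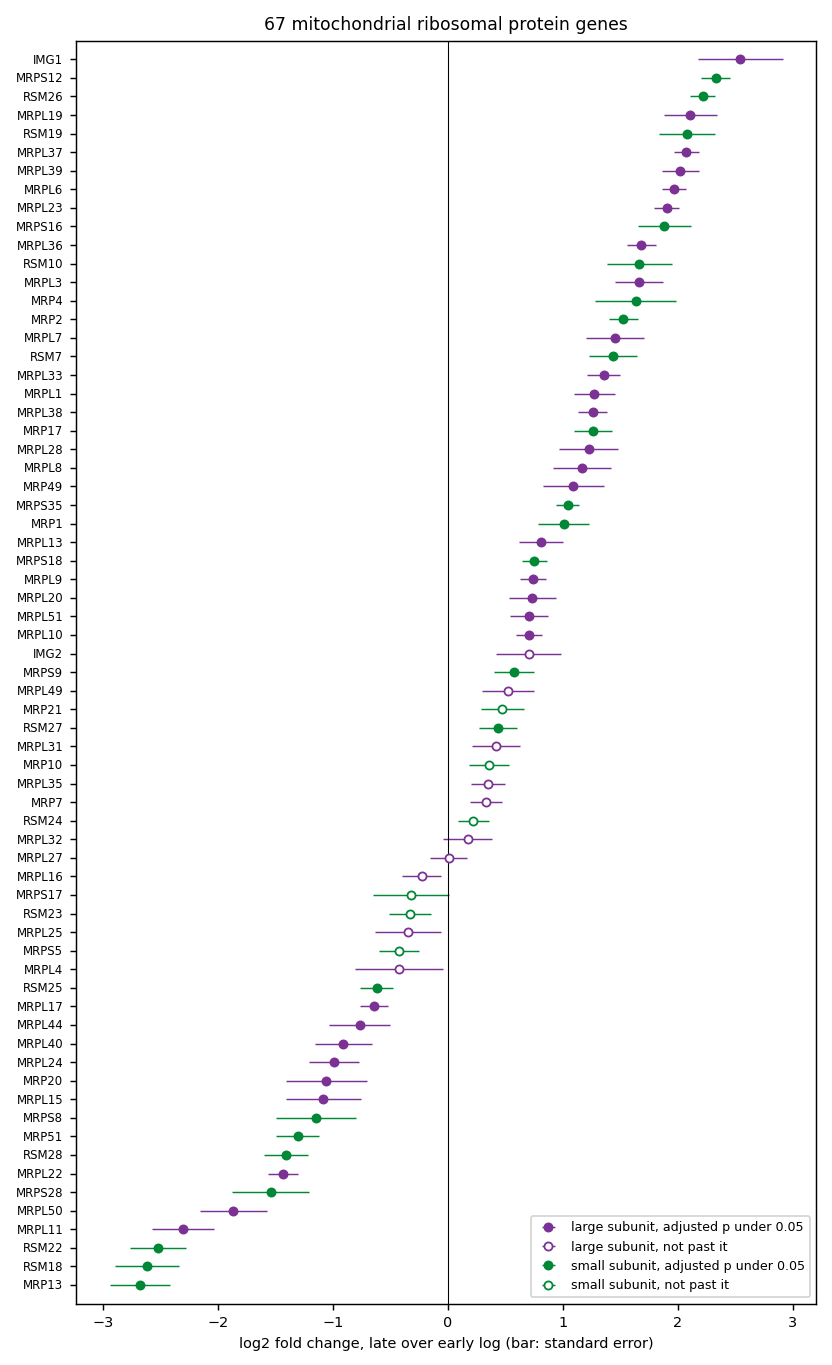
log2 fold change of each of the 67 genes, late over early log, with its standard error (edgeR, 3 libraries against 3). Filled points passed an adjusted p of 0.05; 34 lie above 0 and 17 below, and large and small subunit genes are spread over the whole range from -2.68 to 2.54.

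Among small subunit genes, MRPS12 and RSM26 rose most. MRPS12 encodes the counterpart of bacterial S12, a protein of the decoding centre. It had 51.3, 45.4 and 54.5 CPM in early log, 114, 305 and 292 CPM in mid log, and 244, 260 and 285 CPM in late log. It rose 5.02-fold between early and late log (log2 fold change 2.33 ± 0.13 SE, adjusted p = 3.28e-05), and mid log replicate 1 alone lay between the levels of early log and those of the other libraries.

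RSM26, a protein without a bacterial counterpart that is related to superoxide dismutases, had 41.8, 44.4 and 46.9 CPM in early log, 84.1, 123 and 145 CPM in mid log, and 222, 195 and 225 CPM in late log. The subphases did not overlap, and the rise from early to late log was 2.21 ± 0.11 on the log2 scale (adjusted p = 3.17e-05). MRP1, which belongs to the same protein family, rose by 1.01 ± 0.22 (adjusted p = 0.00504), with 101, 94.8 and 99.3 CPM in late log against 36.8, 39.6 and 65.0 CPM in early log.

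RSM19, the counterpart of bacterial S19, lies just upstream of MRPS12 on the same strand of chromosome XIV (RSM19 at 695052 to 695327, MRPS12 at 694361 to 694822). Its level was 9.37, 8.54 and 15.5 CPM in early log, 16.5, 11.2 and 14.7 CPM in mid log, and 52.4, 47.4 and 47.1 CPM in late log, a rise of 2.08 ± 0.24 between early and late log (adjusted p = 0.000266). The neighbours thus reached late log by different paths. MRPS12 already lay above its late log level in mid log replicates 2 and 3, while RSM19 in mid log lay at or near its early log level. Further small subunit genes that rose by more than 1 on the log2 scale were MRPS16, RSM10, MRP4, MRP2, RSM7, MRP17 and MRPS35, and by less MRPS18, MRPS9 and RSM27.

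Among large subunit genes, IMG1 rose most. It encodes the counterpart of bacterial L19, at the interface between the subunits, and its loss is known to impair the stability of mitochondrial DNA. It had 20.7, 17.2 and 44.4 CPM in early log, 83.5, 115 and 128 CPM in mid log, and 151, 154 and 195 CPM in late log, a 5.83-fold rise between early and late log (2.54 ± 0.37, adjusted p = 0.0007). Early log replicate 3 was well above replicates 1 and 2, yet the subphases did not overlap.

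MRPL19, the counterpart of bacterial L11 at the site where translation factors bind, had 88.2, 81.8 and 90.0 CPM in late log against 14.6, 16.8 and 26.5 CPM in early log (2.11 ± 0.23, adjusted p = 0.000202). It overlaps a dubious reading frame of the same strand, YNL184C, by 113 bases, and reads there cannot be told apart. MRPL37, which has no bacterial counterpart, had 77.7, 70.9 and 75.3 CPM in late log against 16.9, 16.3 and 18.0 CPM in early log (2.07 ± 0.11, adjusted p = 3.17e-05). These values left wide gaps between the groups.

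MRPL6, the counterpart of bacterial L6, rose by 1.97 ± 0.11 (adjusted p = 3.28e-05), MRPL23, that of L13, by 1.90 ± 0.11 (adjusted p = 3.57e-05), and MRPL36, that of L31, by 1.68 ± 0.12 (adjusted p = 5.56e-05). Late log libraries held 104 to 111 CPM of MRPL6, 124 to 131 CPM of MRPL23 and 94.0 to 114 CPM of MRPL36, and early log libraries 24.4 to 27.8, 31.0 to 35.6 and 28.2 to 33.9 CPM. For each of these genes mid log lay between early and late log in all 3 libraries. The other large subunit genes that rose were MRPL39, MRPL3, MRPL7, MRPL33, MRPL1, MRPL38, MRPL28, MRPL8 and MRP49, with log2 fold changes of 1.09 to 2.02, and MRPL13, MRPL9, MRPL20, MRPL51 and MRPL10, with 0.71 to 0.81.

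**Figure D4:**
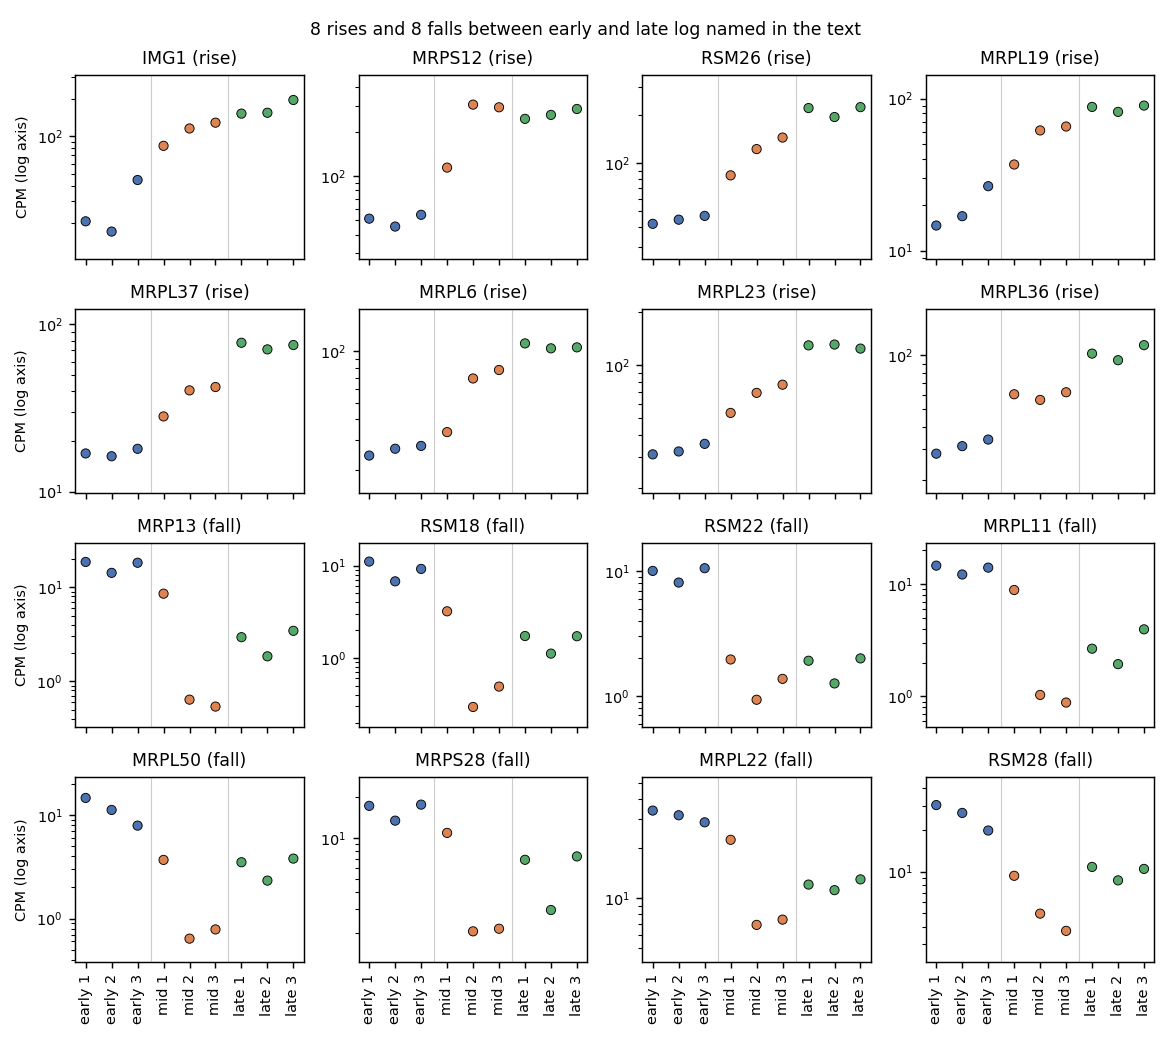
CPM on a log axis in each library for 8 genes that rose (upper rows) and 8 that fell (lower rows) between early and late log. In the genes that fell, mid log replicate 1 lies near or between early and late log and mid log replicates 2 and 3 lie lowest in most panels; in the genes that rose, mid log lies between or near late log.

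None of the 17 genes that fell reached the mean log2 CPM of 5 over early and late log libraries required for naming. The falls given here were chosen after their values were seen. A fall itself lowers this mean, and not all of these genes were low in early log. There MRPL22 had 33.8, 31.7 and 28.7 CPM and MRP51 32.7, 33.5 and 43.9 CPM, against member medians of 18.2, 17.2 and 20.3 CPM. MRP13, a small subunit protein without a bacterial counterpart, had 18.6, 14.2 and 18.2 CPM in early log, 8.54, 0.639 and 0.540 CPM in mid log, and 2.95, 1.84 and 3.44 CPM in late log. Its log2 fold change between early and late log was -2.68 ± 0.26 (adjusted p = 0.000131). RSM18, the counterpart of bacterial S18, had 11.1, 6.77 and 9.22 CPM in early log, 3.20, 0.295 and 0.490 CPM in mid log, and 1.73, 1.12 and 1.72 CPM in late log (-2.62 ± 0.28, adjusted p = 0.000191). Both were lowest in mid log replicates 2 and 3.

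RSM22, the member without a Puf3 element, had 10.1, 8.11 and 10.6 CPM in early log, 1.96, 0.934 and 1.37 CPM in mid log, and 1.92, 1.26 and 2.00 CPM in late log (-2.52 ± 0.24, adjusted p = 0.000125). In this gene mid and late log overlapped, and all 6 of their libraries lay below early log.

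In the large subunit, MRPL11, the counterpart of bacterial L10 in the stalk, had 2.67, 1.94 and 3.97 CPM in late log against 14.7, 12.2 and 14.1 CPM in early log (-2.30 ± 0.27, adjusted p = 0.000283). MRPL50, the counterpart of L9, had 3.51, 2.33 and 3.81 CPM in late log against 14.7, 11.3 and 7.94 CPM in early log (-1.86 ± 0.29, adjusted p = 0.00106). MRPL22, the counterpart of L22 in the wall of the exit tunnel, fell with the smallest error of these (-1.43 ± 0.13, adjusted p = 9.79e-05). The groups did not overlap for any of these genes.

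The small subunit genes MRPS28 (the counterpart of S15, -1.54 ± 0.33, adjusted p = 0.00458) and RSM28 (without a bacterial counterpart, -1.41 ± 0.19, adjusted p = 0.000517) fell as well. The other genes that fell were MRP51, MRPS8 and RSM25 of the small and MRPL15, MRP20, MRPL24, MRPL40, MRPL44 and MRPL17 of the large subunit, with log2 fold changes of -1.31 to -0.62. Of these, MRP20 had libraries that overlapped between the groups.

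The 16 genes that did not pass had log2 fold changes of -0.43 to 0.70 with standard errors of 0.13 to 0.38. They were IMG2, MRPL4, MRPL16, MRPL25, MRPL27, MRPL31, MRPL32, MRPL35, MRPL49 and MRP7 of the large subunit and MRP10, MRP21, MRPS5, MRPS17, RSM23 and RSM24 of the small subunit. MRP7, the counterpart of bacterial L27 near the peptidyl transferase centre, had 73.9, 60.1 and 73.3 CPM in late log against 52.2, 46.4 and 59.5 CPM in early log (0.33 ± 0.14, adjusted p = 0.0624), and the groups were separated by a narrow gap. MRPL27 was closest to no difference (0.01 ± 0.16).

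These counts depend on the scaling and on how the sequencing run is treated. With plain library totals 22 members rose and 24 fell (32.8% and 35.8%), as the median over all genes shifted to -0.68. Over all genes 14.1% rose and 55.3% fell on this scale. The members' median then lay 0.65 above that of all genes, against 0.66 above it with TMM. With the sequencing run as a term (run 3 against the others, in a fit of all 9 libraries), 17 members rose and 1 fell (12.0% and 12.1% of all genes). All late log libraries are of run 3, so this fit in effect sets late log against early log replicate 3 alone. Of the 8 falls named, RSM22 alone passed. The log2 fold changes of these 8 genes then ran from -2.73 to -0.99, with MRP13 at -2.73 (adjusted p = 0.114) and RSM18 at -2.59 (adjusted p = 0.0753). The calls of MRP13 and RSM18 were thus lost at log2 fold changes close to those without the term. The libraries of run 3 alone make the same contrast, with early log replicate 3 as the single early log library. The members' median log2 fold change was 0.39 there and 0.45 with the term. Without early log replicate 3, 40 rose and 18 fell. When the trend with GC content was removed, 42 rose and 12 fell. For the fits without early log replicate 3 or without the GC trend, no share over all genes was taken.

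Mid log against early log gave rises and falls whose number depended on single libraries of both subphases. In all, 11 genes rose and 13 fell of 67 (edgeR, adjusted p under 0.05), against 20.7% that rose and 24.2% that fell of all genes tested. The median log2 fold change of the members was -0.28, against -0.12 over all genes, and it turned to 0.022 when the trend with GC content was removed. The genes that rose were MRPS12 (2.25 ± 0.39, adjusted p = 0.0135), IMG1 (2.00 ± 0.41, adjusted p = 0.0143), MRPL19, RSM26, MRPL6, MRPL37, MRPS16, MRPL23, MRPL3, RSM7 and MRPL36. Those that fell were RSM22 (-2.72 ± 0.37, adjusted p = 0.0135), RSM18, MRPL50, RSM28, MRPS8, MRPL24, MRPL44, MRPL32, MRP10, MRPS17, MRPL17, MRPL16 and MRPL25. With plain library totals 1 member rose and 17 fell (1.49% and 25.4%), against 3.63% and 35.7% of all genes.

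In mid log replicate 1 the level was more than 2 times the mean of mid log replicates 2 and 3 for 28 of the 67 genes (41.8%), against 26.4% of all genes tested. Replicate 1 was the highest of the 3 mid log libraries for 48 members (71.6%, against 49.5% of all genes) and the lowest for 16 (23.9%, against 45.3%). MRPL4, the counterpart of L29, is an example, with 58.5 CPM in replicate 1 and 6.34 and 7.50 CPM in replicates 2 and 3, beside 17.1, 16.9 and 42.2 CPM in early log.

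Without mid log replicate 1, 17 members rose and 35 fell between early and mid log, against 33.6% and 42.8% of all genes, and the members' median was -0.78, 0.57 below that of all genes. Without mid log replicate 2 or 3, or without early log replicate 1 or 2, no member passed (edgeR, 9 to 12 members at an unadjusted p under 0.05 in each direction), nor did any other gene. Without early log replicate 3, 10 members rose and 5 fell, with a median of -0.03. In mid log replicates 2 and 3, 36 of the 67 genes (53.7%) lay below all early and all late log libraries, against 31.9% of all genes tested. MRPL32, the counterpart of L32 whose import and processing are known to control ribosome assembly, is an example. It had 18.1, 17.5 and 21.8 CPM in early log, 9.90, 4.13 and 3.34 CPM in mid log, and 26.6, 15.9 and 24.6 CPM in late log.

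**Figure D5:**
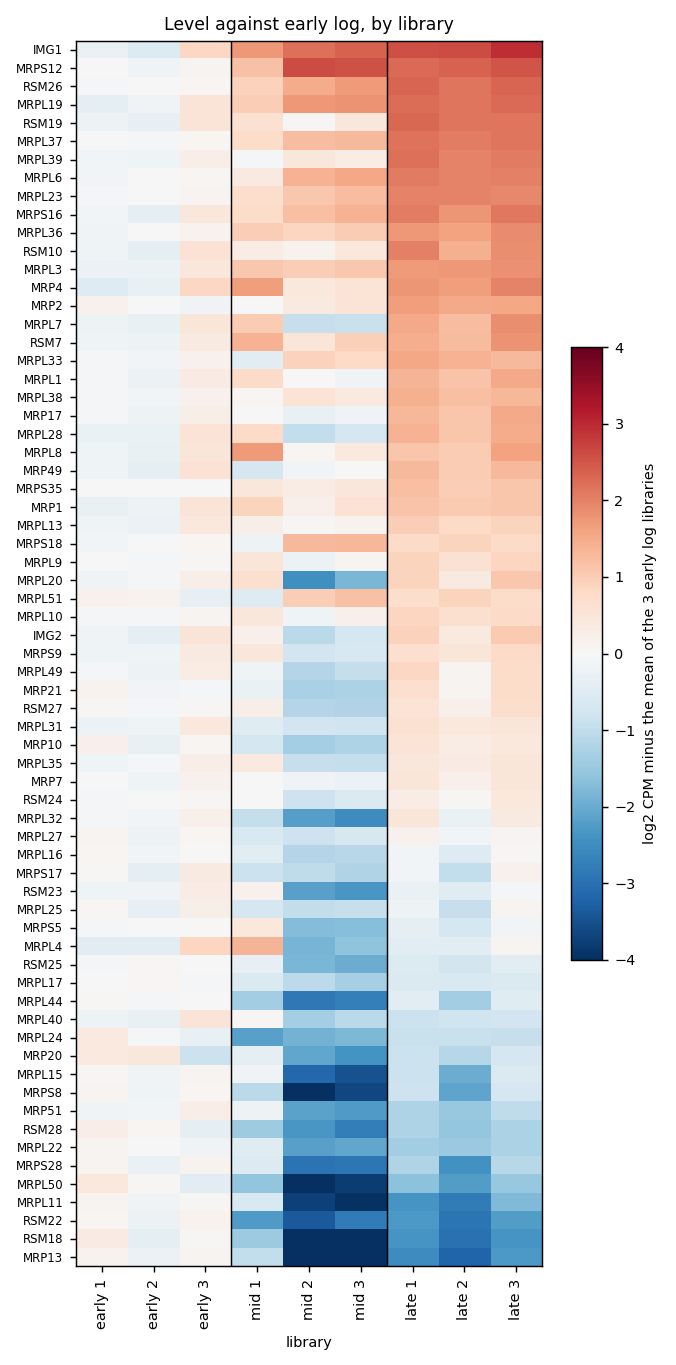
Level of the 67 genes in each library relative to early log, as log2 CPM minus the mean of the 3 early log libraries (red higher, blue lower; values past the ends of the scale take its end colour), ordered by the change between early and late log. Mid log replicates 2 and 3 are alike and hold the deepest falls, mid log replicate 1 differs from them, and the 3 late log libraries are alike.

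Late log lay above mid log for most of these genes, but few passed the test. Of 67 genes, 58 had a positive log2 fold change, with a median of 0.63 against -0.11 over all genes. The late log libraries were above all 3 mid log libraries for 37 members (55.2%, against 18.9% of all genes). By edgeR 3 members rose and none fell at an adjusted p under 0.05, against 0.307% and 0.153% of all genes. At an unadjusted p under 0.05, 30 of 67 members were higher and 0 lower in late log. Over all 5865 genes tested, 536 were higher and 624 lower at this threshold. By DESeq2 12 members rose and 0 fell at an adjusted p under 0.05, and the share over all genes was not taken for that test.

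The 3 that passed were short genes with a bacterial counterpart. RSM19 rose by 1.67 ± 0.20 (adjusted p = 0.0269), with 52.4, 47.4 and 47.1 CPM in late log against 16.5, 11.2 and 14.7 CPM in mid log. MRPL39, the counterpart of L33, rose by 1.70 ± 0.23 (adjusted p = 0.0394), with 52.5, 44.9 and 48.1 CPM in late log against 10.9, 15.7 and 14.1 CPM in mid log. MRP17, the counterpart of S6, rose by 1.33 ± 0.19 (adjusted p = 0.0448), with 43.0, 37.1 and 48.4 CPM in late log against 17.2, 13.9 and 15.6 CPM in mid log. In all 3 genes mid log was close to early log, and the step lay between mid and late log. None of them passed when any of 5 libraries was left out, which are mid log replicates 2 and 3 and each late log library.

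Without mid log replicate 1, 59 members rose between mid and late log and 3 fell (28.9% and 27.2% of all genes), with a median of 0.96 against 0.07 over all genes. The 3 that fell were MRPS12 (-0.36, adjusted p = 0.009), MRPS18, the counterpart of S11 (-0.67, adjusted p = 0.000446), and MRPL51 (-0.49, adjusted p = 0.0091). MRPL51 overlaps YPR099C on the opposite strand by 323 bases, and the strand setting of the counting is not stated. MRPS18 was the member whose mean was highest in mid log, with 34.9 to 39.4 CPM in early log, 32.1, 90.9 and 93.0 CPM in mid log, and 62.9 to 68.8 CPM in late log. Only 2 mid log libraries remain in this fit, and both belong to run 2.

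Between early and late log, log2 fold changes tended to be higher in shorter genes and in genes richer in GC. Across the 67 genes, Spearman's rho of the log2 fold change between early and late log was -0.33 with coding length and 0.44 with GC content, and across all coding genes it was -0.38 and 0.30. Between mid and late log the rho with coding length was -0.52 for members and -0.31 for all coding genes, and the rho with GC content turned to -0.12 and -0.09. These are descriptions across genes of the same libraries. The members are short, with a median coding length of 699 bases against 1197 over all genes, while their median GC content was 39.7% against 39.8%. IMG1, RSM7, MRPS12, MRPL8 and RSM19, which rose, had the highest GC contents at 52.4%, 52.0%, 49.4%, 48.7% and 48.6%. MRP20 and MRPL4, which did not rise, came next with 47.7% each. With the length trend removed, 33 members rose and 20 fell between early and late log. The part of length and GC in the levels was not tested beyond this.

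Other genes of mitochondrial translation gave rises and falls side by side. Of 11 further genes for mitochondrial ribosomal proteins with other names, 5 rose and 3 fell between early and late log (median log2 fold change 0.03), and all 11 held the Puf3 core. The 14 mitochondrial aminoacyl-tRNA synthetase genes, which charge the tRNAs of the organelle and all hold the core too, gave 5 that rose and 4 that fell (median 0.24). Of 22 translation and ribosome assembly factor genes, 5 rose and 11 fell (median -0.73), and of 14 translational activator genes, whose products bring single mitochondrial mRNAs to the ribosome, 6 rose and 5 fell (median -0.04). The members' median of 0.57 was above all of these. With plain library totals the counts moved toward falls, as they did over all genes, of which 14.1% rose and 55.3% fell. Among the other ribosomal proteins 4 then rose and 6 fell, and among the synthetases 2 and 6. The counts were 3 and 15 among the factors and 1 and 8 among the activators.

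The 22 nuclear genes for respiratory chain subunits gave 18 that rose and 1 that fell (median 0.88). Of these 22 genes, 2 held the Puf3 core. The 138 genes of the cytosolic ribosomal protein list, which includes RPP1, gave 55 that rose and 16 that fell (median 0.43). The core was held by 6 of them. The direction for this list turned with plain library totals, where 15 rose and 42 fell (median -0.16). On that scale the median over all genes shifted to -0.68. The list's median lay 0.52 above that of all genes, against 0.51 above it with TMM. With the run as a term 77 rose and 0 fell, in a contrast that rests on early log replicate 3 alone. In that library the sum of these genes was 159490 CPM, against 258576 and 255372 CPM in early log replicates 1 and 2. The respiratory chain list gave 9 that rose and 2 that fell with library totals (median 0.28). Between mid and late log the medians were 0.63 for members, 0.50 for the respiratory chain list and 0.25 for the cytosolic ribosomal proteins, and between early and mid log they were -0.28, 0.30 and 0.11.

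PUF3 itself did not pass the test in any comparison. It had 9.24, 9.82 and 7.88 CPM in early log, 4.85, 7.62 and 6.47 CPM in mid log, and 9.73, 8.11 and 11.3 CPM in late log, and the log2 fold change between early and late log was 0.06 ± 0.18. Activity of the protein is not read from its mRNA. HAP4, the glucose-repressed activator of respiratory genes, fell, with 21.0, 24.9 and 22.0 CPM in late log against 82.1, 69.0 and 78.7 CPM in early log (-1.81 ± 0.13, adjusted p = 5.18e-05). The tagged gene RPA135 had 484, 517 and 383 CPM in early log, 821, 1095 and 1267 CPM in mid log, and 642, 538 and 553 CPM in late log. It rose between early and mid log (1.22 ± 0.26, adjusted p = 0.0146) and did not pass the test between early and late log (0.27 ± 0.15, adjusted p = 0.131) or between mid and late log (-1.02 ± 0.24, adjusted p = 0.106).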

How the data were processed

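The authors isolated polyadenylated RNA, made strand-specific libraries, used STAR to align the single-end reads to the R64 genome and HTSeq (version 0.12.3 in the submitters' processing notes) to count reads per gene, and deposited raw counts without normalization. The strand setting of the counting is not given in the sources used here. The files list 7127 genes, and 5 summary lines that name no gene were left out (reads on no gene were 6.65% to 10.7% of reads, reads with more than 1 match 7.46% to 11.2%). Sequencing runs were taken from the study's primer list.

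For each comparison the 6 libraries of the pair of subphases were fitted with edgeR 4.0.16 in R 4.3.3 (filterByExpr, TMM, quasi-likelihood test) and Benjamini-Hochberg adjustment over all genes tested. The design follows the study's pairwise comparisons, with edgeR in place of DESeq2. Standard errors were derived from the F statistic. Replicates are described as biological, and each pair of replicates differed by more than counting noise. Motifs and copies were searched in the R64 genome of RefSeq, and no member has another copy of 50 bases at 97% identity or more. Tables and figures were made in Python 3.11.15. The fit was tested on simulated counts. Few of the genes were changed there and no library deviated, so that test does not bear on the scaling when many genes change.

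The members and gene lists were chosen with earlier results of these data known. Named were the 8 largest rises and falls between early and late log with groups that do not overlap and a mean log2 CPM of at least 5 (no fall reached it, so the 8 largest falls below it were added), the 4 members highest per kilobase, and every member past the threshold between mid and late log. Alternatives were DESeq2 1.42.0 and its size factors, library totals, a replicate block, the sequencing run as a term, no filter or at least 10 counts in every library, each library left out, and all 9 libraries fitted together. Removal of trends with GC content or coding length and the use of run 3 alone were added after seeing the data.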

Additional observations from a re-analysis of the deposited data

How the results depend on the processing

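Between early and late log the counts of 34 genes that rose and 17 that fell stayed within 1.5 times under several alternatives. These were DESeq2's size factors, DESeq2's test, no filter, a minimum of 10 counts, removal of the GC or length trend, and each library left out. Over all of these 31 to 42 rose and 12 to 20 fell, and 31 to 40 and 15 to 18 with a library left out. The counts left this range with library totals (22 rose), with a fit of all 9 libraries (8 fell) and with the run as a term (17 rose, 1 fell). The run term in effect leaves early log replicate 3 alone as the early log level. The members' median turned to -0.032 with library totals. Between early and mid log, 11 rose and 13 fell. Library totals gave 1 that rose, the fit of all 9 libraries 21 that fell, and leaving out a library 0 to 17 that rose and 0 to 35 that fell. The members' median, -0.28, became 0.022 with the GC trend removed. Without early log replicate 3, 5 fell. Between mid and late log, 3 rose and 0 fell by edgeR. Library totals gave 17 that rose, DESeq2's test 12 and the fit of all 9 libraries 15, while removal of the GC or the length trend gave 0 (34 and 26 at an unadjusted p under 0.05). Leaving out a library gave 0 to 59 that rose and 0 to 3 that fell. Shares over all genes were taken for some of these alternatives only. The causes were not tested.

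The replicate numbers were not shown to pair the libraries, since the correlations of same-numbered deviations ran from -0.36 to 0.38. With the numbers as a replicate block, 37 rose and 16 fell between early and late log, 10 rose and 17 fell between early and mid log, and 0 rose and 0 fell between mid and late log (32 rose at an unadjusted p under 0.05).

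Alternatives were scored for named genes in the comparisons where they had passed, and there none changed direction. Where they had not passed, MRP13, MRPL11 and MRPL22 had log2 fold changes of -0.33, -0.43 and -0.12 between mid and late log, against 2.04, 1.41 and 0.58 without mid log replicate 1. The calls that had passed were lost in 8 of 323 alternative fits between early and late log, 58 of 179 between early and mid log and 25 of 45 between mid and late log. Between early and late log the losses include every named fall other than RSM22, each lost with the run as a term. The depth of 22830165 to 34358259 reads leaves the lowest members with few reads, as RSM18 with 6 and 10 in mid log replicates 2 and 3, where counting error is large.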
